A study of Mus musculus with 18 samples.

Results

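A set of 35 genes that hypoxia-inducible factors (HIF) are known to switch on, or that carry out glycolysis, was examined in RNA of mouse lung after 4 weeks of low oxygen. They were listed by symbol for their known roles, with earlier results of these data known, so shares of the set that passed a test describe these genes and are not independent evidence about the pathway. All 35 were found among the 23356 features of the deposited table of fragments. Of these, 34 had enough fragments to be tested, and Gapdh had 6 fragments in all 18 libraries together.

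Hypoxia-inducible factors are pairs of an oxygen-sensitive alpha subunit and a stable partner. Prolyl hydroxylases use oxygen to mark the alpha subunit for destruction, so it accumulates when oxygen falls and binds short DNA sequences called hypoxia response elements near its target genes. Classical targets move glucose into the cell and down the glycolytic chain, direct pyruvate to lactate, trim mitochondria and slow growth. In the lung, where low oxygen constricts and remodels the small arteries, both HIF-1 and HIF-2 have been studied as drivers of the response.

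Male C57BL/6 mice of 3 genotypes entered the study at 8 to 12 weeks of age and were 12 to 16 weeks old at the end. They were wild type, β-arrestin 1 -/-, or labelled β-arrestin 2 -/- and called the third line below. β-Arrestins are adaptors that end the signalling of G protein-coupled receptors. Controls breathed air at normal altitude, with a PAO2 of about 150 mmHg, and hypoxic mice spent 4 weeks at the pressure of 18000 feet, with a PAO2 of about 70 mmHg. There were 6 groups of 3 libraries (replicates 0 to 2), each library made from poly(A) RNA of about 30 mg of whole lung by a protocol without strand marking. Nothing in the labels ties a library to a separate animal, so the p-values reflect how these libraries varied, which may be technical. In RNA of whole lung, fewer cells of a type and less RNA per cell cannot be told apart.

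To show the kind of site these factors bind, the bases before the annotated start of 6 of the genes described below are printed here. Each run holds the 250 bases before the start on the strand of the gene, from RefSeq on the GRCm38.p6 build, and capitals mark each match to ACGTG or GCGTG, the core letters of a hypoxia response element, read on either strand. Slc2a1 is the main glucose transporter gene, Pfkl and Aldoc encode enzymes of upper glycolysis, and Mxi1, Kdm3a and P4ha2 are the genes outside glycolysis whose response to hypoxia was called different between the libraries labelled β-arrestin 2 -/- and wild type.
Slc2a1: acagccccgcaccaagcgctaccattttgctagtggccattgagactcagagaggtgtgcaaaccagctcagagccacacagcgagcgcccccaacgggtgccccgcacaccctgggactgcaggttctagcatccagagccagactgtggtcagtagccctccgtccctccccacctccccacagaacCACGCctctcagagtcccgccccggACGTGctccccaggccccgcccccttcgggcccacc
Pfkl: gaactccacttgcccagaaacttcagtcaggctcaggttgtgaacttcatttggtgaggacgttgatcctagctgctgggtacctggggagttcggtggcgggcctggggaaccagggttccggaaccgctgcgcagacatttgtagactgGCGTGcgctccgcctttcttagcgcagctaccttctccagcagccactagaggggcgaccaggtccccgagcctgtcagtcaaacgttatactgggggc
Aldoc: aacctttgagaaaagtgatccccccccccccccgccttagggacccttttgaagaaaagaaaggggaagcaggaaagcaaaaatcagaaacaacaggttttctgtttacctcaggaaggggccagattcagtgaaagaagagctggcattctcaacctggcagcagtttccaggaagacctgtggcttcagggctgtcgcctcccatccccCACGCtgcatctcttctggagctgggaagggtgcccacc
Mxi1: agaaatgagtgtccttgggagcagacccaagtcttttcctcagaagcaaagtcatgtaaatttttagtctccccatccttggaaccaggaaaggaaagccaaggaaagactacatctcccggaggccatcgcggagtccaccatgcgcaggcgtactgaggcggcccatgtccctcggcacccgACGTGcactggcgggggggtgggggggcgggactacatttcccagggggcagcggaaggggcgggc
Kdm3a: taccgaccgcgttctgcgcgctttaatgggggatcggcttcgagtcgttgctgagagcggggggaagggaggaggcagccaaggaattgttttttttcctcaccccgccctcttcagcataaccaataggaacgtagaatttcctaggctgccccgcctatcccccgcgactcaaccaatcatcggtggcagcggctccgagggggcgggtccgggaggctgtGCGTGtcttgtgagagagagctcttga
P4ha2: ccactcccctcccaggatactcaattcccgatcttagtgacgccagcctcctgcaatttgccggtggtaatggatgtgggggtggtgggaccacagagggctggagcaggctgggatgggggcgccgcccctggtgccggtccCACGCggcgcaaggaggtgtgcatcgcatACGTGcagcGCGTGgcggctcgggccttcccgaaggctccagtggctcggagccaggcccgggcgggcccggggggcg

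The Slc2a1 window (chr4:119108495-119108744, plus strand) held cores 61 and 36 bases before the start. The Pfkl window (chr10:78009808-78010057, minus strand) held 1 core 99 bases before the start, and the Aldoc window (chr11:78323948-78324197, plus strand) held 1 at 39 bases. The Mxi1 window (chr19:53329163-53329412, plus strand), at a second annotated start 18907 bases downstream of the deposited one, held 1 core 66 bases before the start; the window at the deposited start held none. The Kdm3a window (chr6:71632918-71633167, minus strand) held 1 core 27 bases before the start, and the windows at its other annotated starts held none. The P4ha2 window (chr11:54100674-54100923, plus strand) held 3 cores, the farthest 107 bases away. A match is a description of letters and does not show that a factor binds there.

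Such cores are common. Over the 300 bases from 250 before to 50 after a start, 43 of 53 annotated promoters of 32 of the genes held at least 1 core, 81.1%, against 43.8% of 32851 mouse promoters. Windows of 1 gene can overlap, so 1 core can be counted more than once. By gene, 30 of 32 had a core in at least 1 window, 93.8%, against 46.7% of 27025 genes. A gene with more windows has more chances of a core. Promoters of the set were also rich in G and C, with a median of 64.7% against 52.7%. Among the 9690 promoters of at least 60% GC the share with a core was 69.2%, a reference chosen after seeing the data. The E-box CACGTG, which contains ACGTG on both strands, lay in 9.4% of the promoters of the set. It lay in 7.2% of all promoters and in 10.8% of those of at least 60% GC. Bnip3l, Ndrg1 and Stc1 had no entry.

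**Figure D1:**
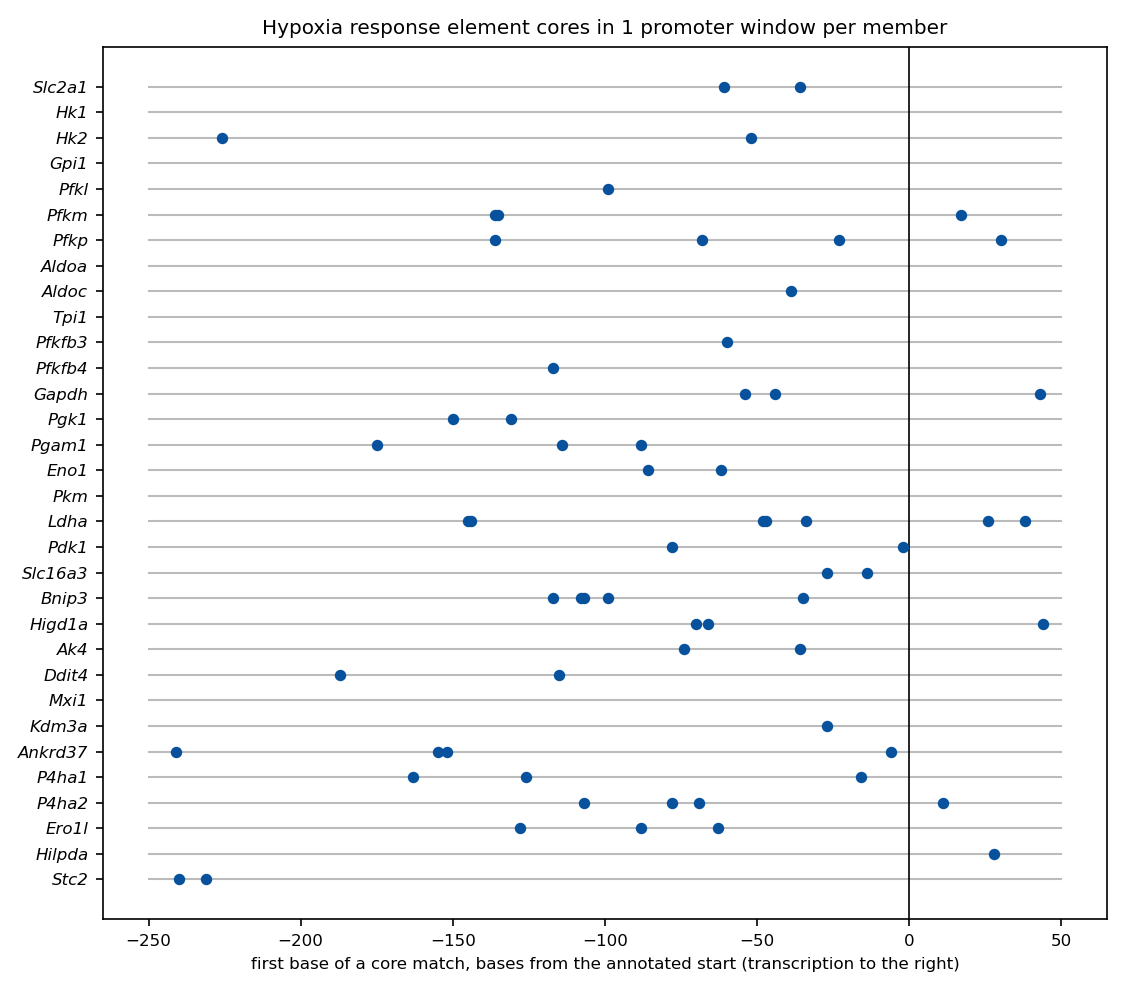
Positions of ACGTG and GCGTG cores, both strands, in 1 annotated promoter window per gene (x axis, bases from the annotated start, 250 before to 50 after; y axis, 32 genes with an entry; each dot is the first base of a core). A core lay in the window of 26 of the 32 genes, and the windows of Hk1, Gpi1, Aldoa, Tpi1, Pkm and Mxi1 held none.

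The genes spanned a wide range of levels. FPKM, the authors' fragment number scaled by gene length and library size, allows levels of different genes to be compared. Over the 18 libraries the mean was highest for Aldoa, the main aldolase gene (313 FPKM), then Ldha, lactate dehydrogenase A (138), and Hilpda, a lipid droplet protein gene (122). Pkm, pyruvate kinase, stood at 106 FPKM. At the other end were Ak4, a mitochondrial adenylate kinase gene (0.817), Pgam1 (2.17), Stc1 (2.26) and Stc2 (2.56). Gapdh was at 0.0127 FPKM, Pgk1 at 4.90 and Eno1 at 5.46, although these enzymes are among the most abundant in most tissues. Gapdh had 77 near-identical copies elsewhere among annotated transcripts (at least 95% identity over at least 300 bases), Pgk1 had 4 and Eno1 had 3, and in all 14 of the 35 genes had at least 1. Bnip3 had 5 (at 16.1 FPKM) and Ldha 3 (at 138), while Pgam1 had 1. The deposited entry of Eno1 also carried the name Gm5506. Estimated counts of Eno1 and Pfkp were whole in 0.0% of libraries. Whether fragments were assigned to copies was not tested, so the levels of Gapdh, Pgk1, Pgam1, Eno1 and the other genes with copies are uncertain.

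**Figure D2:**
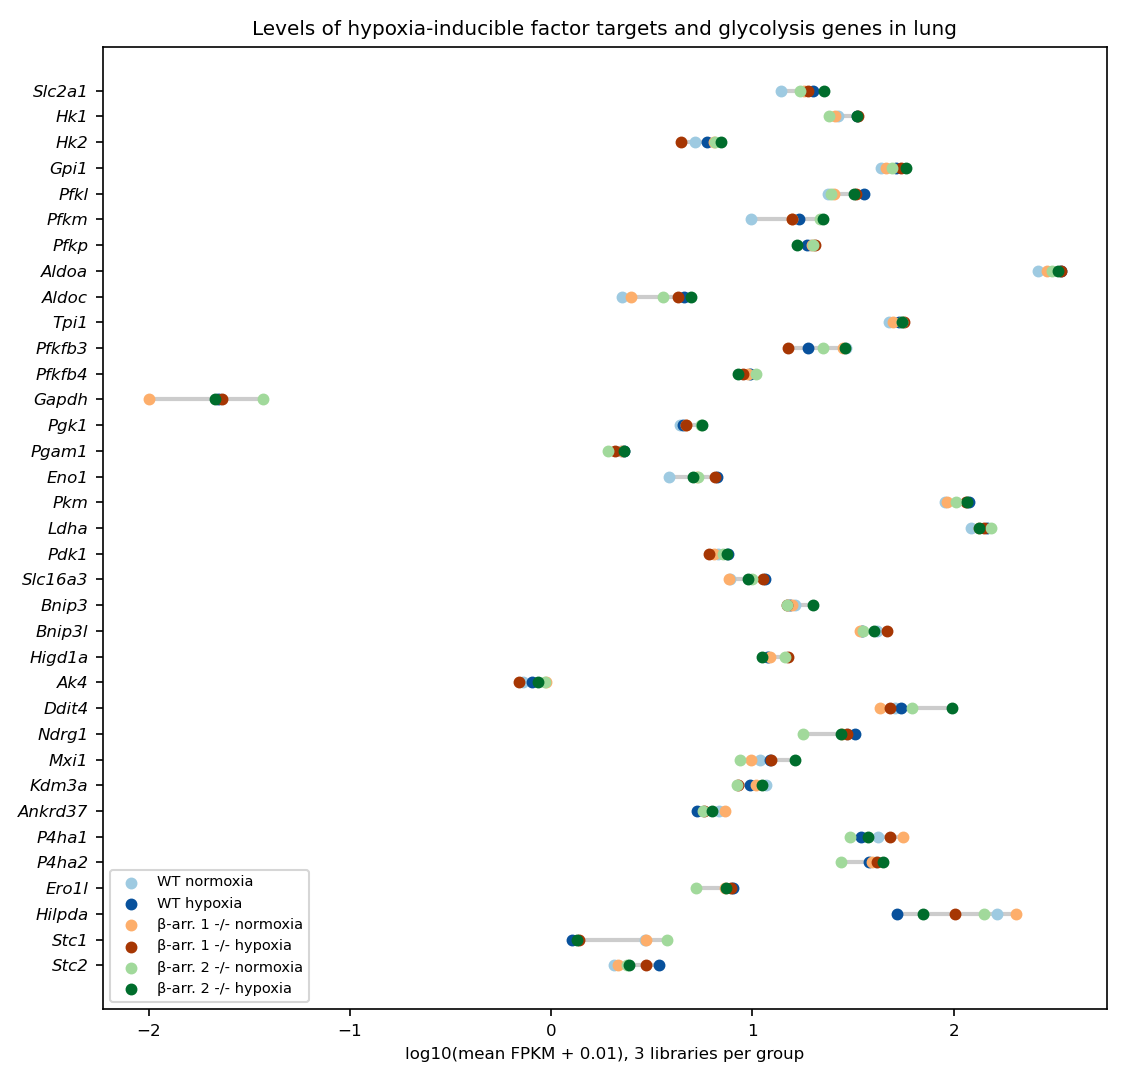
Mean FPKM of each gene in each of the 6 groups (x axis, log10 of mean FPKM + 0.01; y axis, genes by role; points are group means of 3 libraries). Aldoa, at 313 FPKM over all libraries, sits at the right end and Gapdh, at 0.0127, at the left.

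Library totals ran from 16806806 to 25983090 fragments. The smallest was replicate 2 of β-arrestin 1 -/- hypoxia. Arrb1, the gene of β-arrestin 1, was at 472 ± 7.35 CPM (the fragment number scaled for library size but not for gene length; SD, n = 3) in wild type normoxia and at 104 ± 15.3 in β-arrestin 1 -/- normoxia. Arrb2 was at 32.3 ± 2.55 CPM in wild type normoxia and at 40.7 ± 5.19 in the normoxic libraries labelled β-arrestin 2 -/-. That label is therefore not borne out by the gene's level, and every statement on these 6 libraries is about libraries so labelled. Whether the label is wrong or the allele keeps its RNA was not tested. Endothelial and alveolar type 2 cells were well represented, with mean log2 CPM of 9.28 to 9.81 and 9.91 to 10.66 for their markers in the 18 libraries. By mean log2 CPM, markers of heart muscle, airway secretory cells and fat were higher in wild type hypoxia than normoxia without overlap. They overlapped in the other lines. The mean log2 CPM of 10 cardiac muscle markers, of which 10 were measured, was 1.71 to 4.46 in wild type normoxia and 5.92 to 6.75 in wild type hypoxia. It was 5.17 to 7.11 and 3.92 to 7.05 in β-arrestin 1 -/- normoxia and hypoxia, and 4.64 to 8.69 and 6.64 to 7.37 in the libraries labelled β-arrestin 2 -/-. Airway secretory markers, 6 of 7 measured, ran from 4.77 to 5.50 in wild type normoxia and from 8.11 to 8.94 in wild type hypoxia. Their summed CPM, set mainly by the most abundant of them, overlapped between these groups (3660 to 5690 and 5010 to 6350). Adipocyte markers, 6 of 6 measured, ran from 0.95 to 1.87 and from 2.32 to 2.63, with Lep and Ucp1 at 0 in wild type normoxia. A score over these 3 lists was -2.25 to -1.23 in wild type normoxia and 0.49 to 0.94 in wild type hypoxia. Markers of other cell types moved as well. Neutrophil markers, 7 of 7 measured, ran from 1.72 to 2.83 in normoxia and from 2.95 to 4.15 in hypoxia in wild type, from 1.83 to 2.62 and from 3.35 to 3.79 in β-arrestin 1 -/- lung, and from 2.23 to 2.61 and from 3.14 to 3.62 in the third line. Pericyte markers were higher in hypoxia without overlap in wild type (5.45 to 5.63, then 5.93 to 6.19) and in the third line (5.46 to 5.48, then 6.01 to 6.29). In the third line mesothelial markers were at 5.73 to 6.31 and then 3.95 to 4.70, and fibroblast markers at 7.46 to 7.77 and then 6.82 to 7.15. Of 16 lists, 7 were higher and 2 lower in hypoxia without overlap in wild type, 3 and 0 in β-arrestin 1 -/- lung, and 4 and 3 in the third line. The part of these lists in the results was not tested. A fit with the score of the first 3 as a covariate is given below. Wild type normoxia did not overlap in that score with wild type hypoxia. Nor did it overlap with normoxia of β-arrestin 1 -/- lung (-0.77 to 0.83) or of the third line (-0.51 to 1.99). In those comparisons the fit cannot separate the score from hypoxia or genotype. The interactions against wild type and the average over genotypes use the same wild type normoxia libraries, so the limit reaches them too.

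Chronic hypoxia left most of the 34 genes without a called change in any one genotype, and those that changed did so in both directions. Hilpda and Stc1, a stanniocalcin hormone gene, fell in all 3 genotypes. Aldoc was called higher in wild type and β-arrestin 1 -/- lung, and Slc2a1 and Pfkl in wild type. Hk1, Ndrg1, Mxi1, Kdm3a and P4ha2 were called higher in the libraries labelled β-arrestin 2 -/-. Pfkfb3 was called lower in β-arrestin 1 -/- lung. A call in 1 genotype and none in another is not a tested difference between them. Aldoc, Slc2a1, Pfkl, Hk1, Ndrg1 and Mxi1 had positive log2 changes in all 3 genotypes, called or not. Kdm3a, P4ha2 and Pfkfb3 changed direction between genotypes.

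In wild type, 3 of the 34 genes rose and 2 fell (an adjusted p below 0.05 in edgeR's quasi-likelihood test, with Benjamini-Hochberg adjustment over 15388 genes, the threshold for every call here), or 14.7%, against 4.76% of all genes tested (2.85% higher and 1.92% lower). In β-arrestin 1 -/- lung 1 rose and 3 fell, 11.8% against 2.95% (1.84% higher and 1.11% lower). In the libraries labelled β-arrestin 2 -/- 5 rose and 2 fell, 20.6% against 21.9% (11.1% higher and 10.8% lower), a share near the background. Averaged over the 3 genotypes 9 rose and 3 fell, 35.3% against 19.4% (10.4% higher and 8.94% lower). The median log2 change of the 34 genes was 0.15, 0.09, 0.15 and 0.12 in these 4 comparisons, and that of all genes 0.00, 0.02, -0.04 and 0.00. Of the 34 genes 24, 22, 24 and 23 lay above 0. With the score of heart, airway and fat markers as a covariate the wild type count was 0. As said above, that fit cannot separate the score from hypoxia in wild type. The wild type count was 3 without any 1 of 7 libraries and 8 without β-arrestin 1 -/- hypoxia replicate 2. The β-arrestin 1 -/- count was 0 when only its own 6 libraries were fitted or when its normoxia replicate 1 was left out. The averaged count was 8 with the score, 6 higher and 2 lower. The third line's count was 12 without β-arrestin 1 -/- hypoxia replicate 2. The share of all genes called under these other fits is not given here. Their counts therefore do not tell whether calls moved for these genes or for all genes.

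**Figure D3:**
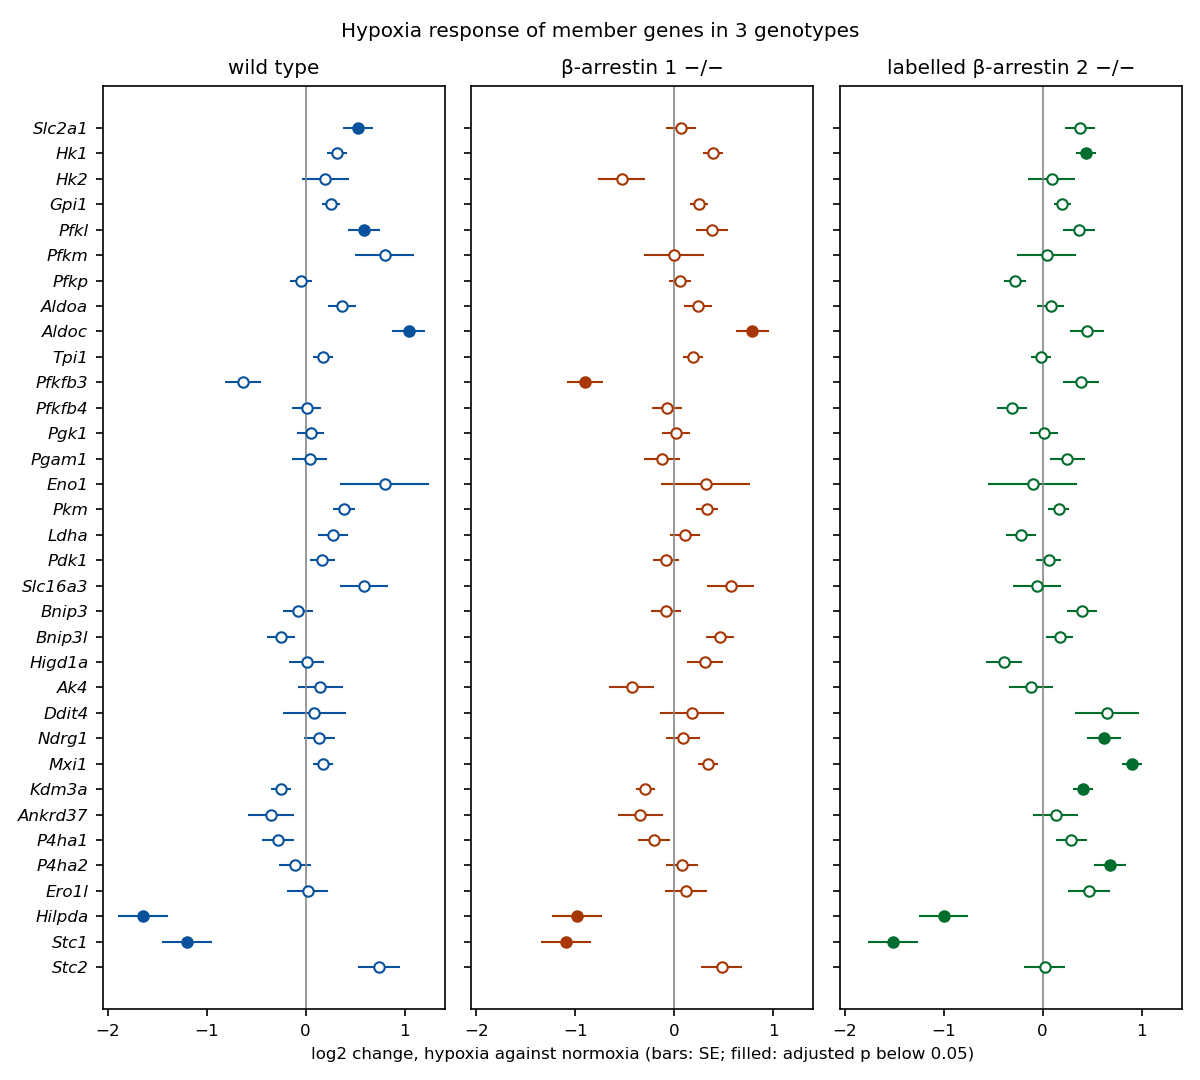
Log2 change of each of the 34 tested genes from normoxia to hypoxia (x axis) in wild type (left panel), β-arrestin 1 -/- (middle) and the libraries labelled β-arrestin 2 -/- (right); bars are SE and filled points have an adjusted p below 0.05. Hilpda (-1.64, -0.98 and -1.0) and Stc1 (-1.2, -1.09 and -1.51) are filled at the left of every panel, while Aldoc reaches 1.04 in wild type and Mxi1 0.90 in the libraries labelled β-arrestin 2 -/-.

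Glucose enters the cell through transporters and is trapped by hexokinases. Slc2a1, the gene of the transporter GLUT1 (chr4:119108745-119137329, mm10), was at 37.4, 38.2 and 35.4 CPM in wild type normoxia and 51.6, 48.3 and 60.9 in hypoxia. It was at 60.1, 39.9 and 44.2 in β-arrestin 1 -/- normoxia, 51.6, 52.7 and 47.2 in its hypoxia, 50.2, 49.5 and 39.7 in normoxia labelled β-arrestin 2 -/-, and 51.0, 66.0 and 64.3 in its hypoxia. The 3 wild type normoxia libraries were the lowest of all 18, and normoxia and hypoxia did not overlap in wild type or in the libraries labelled β-arrestin 2 -/-. Its log2 change was 0.53 ± 0.15 in wild type (adjusted p = 0.0478), 0.07 ± 0.15 in β-arrestin 1 -/- (0.826) and 0.38 ± 0.15 in the third line (0.0704). The wild type call was lost when any 1 of 13 libraries was left out (adjusted p of 0.0535 to 0.203) and remained without β-arrestin 1 -/- normoxia replicates 0 or 1, its hypoxia replicate 2, β-arrestin 2 -/- normoxia replicate 2 or its hypoxia replicate 0. The average over genotypes was 0.33 ± 0.08 (adjusted p = 0.0122), or 0.26 with the marker score as a covariate (0.0629).

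Hk1, the hexokinase gene of most tissues (chr10:62268855-62379908), was at 121, 114 and 121 CPM in wild type normoxia and 146, 153 and 146 in hypoxia. Within β-arrestin 1 -/- lung it was at 111, 116 and 118 and then 161, 158 and 133, and in the libraries labelled β-arrestin 2 -/- at 127, 91.1 and 108 and then 155, 150 and 137. All 9 hypoxic libraries stood above all 9 normoxic ones. Its log2 change was 0.32 ± 0.10 (adjusted p = 0.0916), 0.39 ± 0.10 (0.0546) and 0.44 ± 0.10 (0.00856) in the 3 lines, and 0.38 ± 0.06 averaged (0.000418), and neither of the last calls was lost without any 1 library. Hk2, the inducible hexokinase gene, had log2 changes of 0.20, -0.53 and 0.09, none called, and its lowest library was β-arrestin 1 -/- hypoxia replicate 2 at 16.3 CPM.

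Upper glycolysis splits the 6-carbon sugar. Aldoc, an aldolase gene best known from brain (chr11:78324198-78326760), was at 3.35, 3.54 and 4.42 CPM in wild type normoxia and 6.26, 9.02 and 7.99 in hypoxia. In β-arrestin 1 -/- lung it went from 4.76, 3.50 and 4.30 to 6.91, 7.37 and 7.51, and in the libraries labelled β-arrestin 2 -/- it was at 5.19, 6.97 and 6.13 and then 8.84, 7.76 and 8.36. Normoxia and hypoxia did not overlap in any line, and normoxia was highest in the third line. The fitted log2 change was 1.04 ± 0.17 (adjusted p = 0.00345), 0.79 ± 0.17 (0.0209) and 0.45 ± 0.17 (0.0669), and 0.76 ± 0.10 averaged (8.53e-05). The β-arrestin 1 -/- call was lost without its normoxia replicate 1 (0.116) or 2 (0.0722) and, at 0.15, when only its own libraries were fitted. The wild type call was kept without any 1 library but had an adjusted p of 0.123 with the marker score as a covariate (log2 change 1.01).

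Pfkl, the liver-type phosphofructokinase gene (chr10:77986949-78009796), was at 86.5, 106 and 91.0 CPM in wild type normoxia and at 138, 106 and 184 in hypoxia. Hypoxia replicate 1 was level with the highest normoxic library. On the log2 scale the change was 0.59 ± 0.16 (adjusted p = 0.046). It was 0.36 without wild type hypoxia replicate 2, the call was lost without any 1 of 13 libraries (0.0568 to 0.23), and it was kept without wild type hypoxia replicate 1, β-arrestin 1 -/- hypoxia replicates 0, 1 or 2 or β-arrestin 2 -/- normoxia replicate 0. Within β-arrestin 1 -/- lung Pfkl was at 108, 95.6 and 99.1 CPM and then 144, 107 and 141 (0.38, adjusted p = 0.232), and in the third line at 109, 88.5 and 98.2 and then 128, 126 and 128 (0.37, adjusted p = 0.105). Averaged over the genotypes it rose by 0.45 ± 0.09 (adjusted p = 0.0032).

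Gpi1, the gene of glucose-6-phosphate isomerase (chr7:34201327-34230305), was at 127, 136 and 127 CPM in wild type normoxia and 146, 148 and 174 in hypoxia, without overlap. It was at 139, 142 and 135 and then 165, 154 and 174 in β-arrestin 1 -/- lung, and at 172, 135 and 143 and then 172, 178 and 168 in the third line. No single genotype passed (log2 change 0.26, 0.25 and 0.20; adjusted p of 0.125, 0.181 and 0.125), while the average, 0.24 ± 0.05, did (0.00593). Aldoa, the most abundant gene of the set, was at 388, 404 and 376 CPM in wild type normoxia and 488, 412 and 606 in hypoxia. It was at 441, 431 and 410 and then 529, 432 and 556 CPM in β-arrestin 1 -/- lung, and at 549, 400 and 425 and then 515, 485 and 458 in the third line. The wild type groups did not overlap. Its log2 changes of 0.37, 0.24 and 0.08 did not pass, and the average was 0.23 ± 0.08 (adjusted p = 0.0543).

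Pfkm, the muscle-type phosphofructokinase gene (chr15:98038744-98132447), had the widest spread in upper glycolysis. It was at 31.5, 25.2 and 32.3 CPM in wild type normoxia, 47.6, 47.0 and 60.6 in wild type hypoxia, and 108, 49.4 and 41.1 in normoxia labelled β-arrestin 2 -/-. The library at 108 is β-arrestin 2 -/- normoxia replicate 0, which also had the highest cardiac muscle score of all, 8.69. In β-arrestin 1 -/- lung Pfkm was at 57.6, 49.7 and 35.4 CPM in normoxia and 36.0, 64.5 and 42.5 in hypoxia, and in hypoxia of the third line at 80.9, 63.2 and 58.9. Its log2 difference with hypoxia was 0.80 ± 0.30 in wild type (adjusted p = 0.153), 0.00 in β-arrestin 1 -/- and 0.04 in the third line, none called. Pfkp and Tpi1, the platelet-type phosphofructokinase and triose phosphate isomerase genes, had log2 changes between -0.28 and 0.19 in the 3 lines, none called.

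Fructose-2,6-bisphosphate, made by the PFKFB enzymes, is the strongest activator of phosphofructokinase. Pfkfb3 (chr2:11471431-11553929) was at 129, 191 and 155 CPM in wild type normoxia and 92.1, 95.4 and 120 in hypoxia. Within β-arrestin 1 -/- lung it was at 147, 162 and 142 and then 98.7, 79.0 and 63.7, and in the libraries labelled β-arrestin 2 -/- at 103, 113 and 141 and then 184, 153 and 130. Hypoxia lay below normoxia without overlap in the first 2 lines, and the groups overlapped in the third with a higher mean in hypoxia. Its response on the log2 scale was -0.63 ± 0.18 (adjusted p = 0.057), -0.90 ± 0.18 (0.0133) and 0.39 ± 0.18 (0.126). The β-arrestin 1 -/- call was lost without its normoxia replicate 0 (0.051) or 1 (0.0664) and, at 0.0938, with only its own libraries. The average was -0.38 ± 0.10 (adjusted p = 0.0175), or 0.0799 with the marker score as a covariate. Pfkfb4 had log2 changes of 0.01, -0.07 and -0.31, none called.

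Lower glycolysis yields pyruvate and ATP. Pkm (chr9:59656368-59679375) was at 227, 225 and 233 CPM in wild type normoxia and 295, 264 and 342 in hypoxia. It was at 232, 234 and 231 and then 301, 256 and 319 in β-arrestin 1 -/- lung, and at 302, 235 and 251 and then 303, 307 and 271 in the third line. The groups did not overlap in the first 2 lines. Its log2 difference with hypoxia was 0.39 ± 0.11 (adjusted p = 0.0524), 0.33 (0.131) and 0.16, and the average, 0.29 ± 0.06, passed (0.00442). Pgk1, Pgam1 and Eno1 had log2 changes between -0.12 and 0.80 and none was called; Eno1 ranged from 3.13 CPM, in β-arrestin 1 -/- hypoxia replicate 2, to 16.8 in replicate 1 of the same group.

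Genes of the pyruvate and lactate group did not pass in any hypoxia comparison by edgeR. Ldha was at 196, 191 and 198 CPM in wild type normoxia and 208, 189 and 314 in hypoxia, where replicate 2 stood above all 17 other libraries. It was at 226, 204 and 208 and then 227, 200 and 259 in β-arrestin 1 -/- lung, and at 285, 233 and 226 and then 222, 209 and 206 in the third line. The log2 changes were 0.28, 0.11 and -0.22 (adjusted p of 0.33, 0.744 and 0.297). Slc16a3, the lactate exporter gene, was at 0.59, 0.57 and -0.06 on the same scale (adjusted p of 0.181, 0.229 and 0.872), with no overlap in the first 2 lines. Pdk1, the kinase gene that shuts off pyruvate dehydrogenase, was at 0.17, -0.08 and 0.06.

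No gene of the mitochondrial group passed either. Bnip3l, a mitophagy receptor gene, was at 149, 145 and 136 CPM in wild type normoxia and 132, 131 and 97.9 in hypoxia. It was at 113, 118 and 121 and then 143, 134 and 208 in β-arrestin 1 -/- lung, and at 114, 125 and 128 and then 137, 132 and 142 in the third line. The library at 208 is β-arrestin 1 -/- hypoxia replicate 2, the one of lowest total, which was also the highest for Higd1a, a respiratory chain assembly gene (41.6 CPM). The log2 changes of Bnip3l were -0.25, 0.46 and 0.17 (adjusted p of 0.337, 0.0913 and 0.403). Bnip3, the related receptor gene, was at -0.08, -0.08 and 0.40 (0.0607 in the third line), and Higd1a and Ak4 lay between -0.43 and 0.31.

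**Figure D4:**
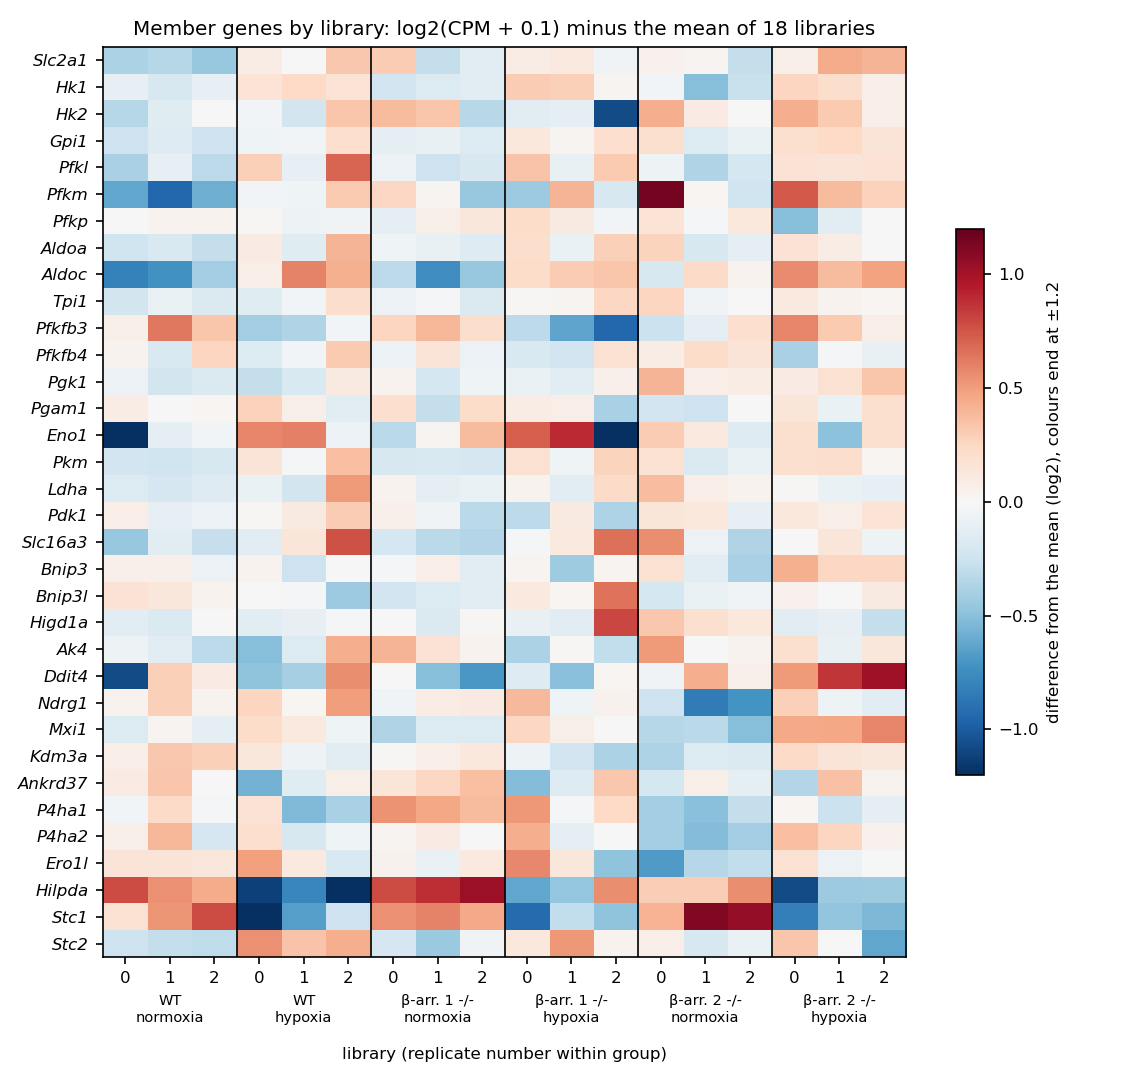
Each tested gene (rows) in each library (columns, grouped; WT is wild type), as log2(CPM + 0.1) minus the mean of the 18 libraries, blue lower and red higher, with colours ending at ±1.2. Hilpda and Stc1 turn from red to blue with hypoxia in every genotype except Hilpda in β-arrestin 1 -/- hypoxia replicate 2 (140 CPM), and Pfkm is darkest red in β-arrestin 2 -/- normoxia replicate 0 (108 CPM).

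Of 5 genes of growth, chromatin and stress, 3 rose in the libraries labelled β-arrestin 2 -/- and 0 were called in either other genotype. Of all genes 11.1% were called higher in those libraries, against 2.85% in wild type and 1.84% in β-arrestin 1 -/- lung. Mxi1, a MAX partner gene that opposes MYC (chr19:53310506-53375810), was at 49.3, 49.9 and 43.8 CPM in normoxia and 85.8, 86.5 and 94.2 in hypoxia there. It was at 55.9, 63.9 and 57.9 and then 72.8, 67.9 and 60.4 in wild type, and at 48.7, 55.9 and 55.8 and then 74.3, 65.8 and 62.4 in β-arrestin 1 -/- lung. The 3 hypoxic libraries labelled β-arrestin 2 -/- were the highest of all 18. Its log2 change was 0.18 (adjusted p = 0.327), 0.34 ± 0.10 (0.0714) and 0.90 ± 0.10 (6.98e-05) in the 3 lines, and 0.47 ± 0.06 averaged (3.73e-05). The last 2 calls were kept without any 1 library.

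Kdm3a, a histone H3 lysine 9 demethylase gene (chr6:71588972-71632905), was at 39.9, 46.1 and 45.8 CPM in normoxia and 60.8, 57.4 and 56.9 in hypoxia in the libraries labelled β-arrestin 2 -/-, without overlap. In wild type it was at 54.6, 64.7 and 63.2 and then 56.8, 49.4 and 47.3, and in β-arrestin 1 -/- lung at 52.3, 54.5 and 56.4 and then 49.4, 44.2 and 39.7. Hypoxia was thus higher in the third line and lower on average in the others. The fitted log2 change was -0.25 (adjusted p = 0.176), -0.29 (0.142) and 0.41 ± 0.10 (0.0102), and -0.04 averaged. Ndrg1, a stress and differentiation gene (chr15:66929318-66969641), was at 68.7, 45.6 and 49.5 CPM and then 99.3, 78.2 and 74.7 in the third line. It was at 83.8, 99.6 and 84.1 and then 97.6, 82.6 and 115 in wild type, and at 78.7, 86.9 and 87.8 and then 107, 78.5 and 84.2 in β-arrestin 1 -/- lung. Normoxia in the third line was lower than in either other line. On the log2 scale the change was 0.14, 0.09 and 0.62 ± 0.17 (adjusted p = 0.0156), the last lost without β-arrestin 2 -/- normoxia replicate 1 (0.0717) or hypoxia replicate 0 (0.0859). The average, 0.29 ± 0.10 (0.0467), was lost without any 1 of 12 libraries (0.0559 to 0.0989), in each of 3 limma fits on FPKM (0.0544 to 0.0709) and with the marker score (0.114).

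Ddit4, an inhibitor of mTORC1 and the most abundant gene of this group, varied widely between libraries. It was at 44.4, 114 and 99.9 CPM in wild type normoxia and 66.9, 70.7 and 137 in hypoxia. It was at 93.3, 65.4 and 57.6 and then 83.9, 65.9 and 94.9 in β-arrestin 1 -/- lung, and at 90.3, 126 and 97.2 and then 133, 169 and 189 in the third line. The log2 changes were 0.09, 0.18 and 0.65 ± 0.32 (adjusted p of 0.933, 0.8 and 0.148). Ankrd37 was at -0.35, -0.34 and 0.13, none called.

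Prolyl 4-hydroxylases stabilise collagen. P4ha2 (chr11:54100924-54131667) was at 67.4, 62.3 and 66.8 CPM in normoxia and 115, 107 and 92.6 in hypoxia in the libraries labelled β-arrestin 2 -/-. It was at 93.9, 118 and 77.6 and then 103, 78.4 and 86.1 in wild type, and at 91.8, 95.7 and 89.6 and then 121, 83.2 and 89.3 in β-arrestin 1 -/- lung. The 3 normoxic libraries labelled β-arrestin 2 -/- were the lowest of all 18. Its response on the log2 scale was -0.11 (adjusted p = 0.773), 0.08 and 0.68 ± 0.16 (0.00743), the last kept without any 1 library. P4ha1, the other catalytic subunit gene, was at 171, 205 and 172 CPM and then 198, 121 and 134 in wild type, at 255, 242 and 228 and then 251, 172 and 207 in β-arrestin 1 -/- lung, and at 132, 124 and 144 and then 178, 147 and 162 in the third line. It was not called (-0.28, -0.20 and 0.29), nor was Ero1l, an oxidase gene of protein folding (0.02, 0.12 and 0.47).

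Hilpda, which slows the breakdown of stored fat in lipid droplets (chr6:29272488-29275449), showed the largest change of the set in wild type. It was at 164, 139 and 130 CPM in normoxia and 43.8, 55.4 and 39.4 in hypoxia, a fall of 1.64 ± 0.25 on the log2 scale (adjusted p = 0.00207). In β-arrestin 1 -/- lung it was at 164, 176 and 194 and then 61.9, 68.9 and 140 (-0.98 ± 0.25, adjusted p = 0.0435), and in the third line at 117, 117 and 140 and then 45.1, 70.4 and 70.7 (-1.0 ± 0.25, adjusted p = 0.0113). Normoxia and hypoxia did not overlap in any line. The average was -1.21 ± 0.14 (adjusted p = 4.44e-05). The β-arrestin 1 -/- call was lost without any 1 of 12 libraries (0.0505 to 0.138) and at 0.253 with only its own libraries; without hypoxia replicate 2, the library at 140, the change was -1.44. The third line's call was lost without its hypoxia replicate 0 (0.0601). The wild type call was kept without any 1 library and had an adjusted p of 0.15 with the marker score as a covariate (log2 change -1.26).

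Stanniocalcins are secreted hormones of calcium and phosphate balance, and their 2 genes went opposite ways. Stc1 (chr14:69029289-69041401) was at 9.22, 11.7 and 14.0 CPM in wild type normoxia and 3.35, 5.08 and 6.77 in hypoxia, at 11.9, 12.3 and 11.1 and then 4.21, 6.59 and 5.76 in β-arrestin 1 -/- lung, and at 10.8, 17.6 and 16.9 and then 4.55, 5.80 and 5.53 in the third line. All 9 hypoxic libraries lay below all 9 normoxic ones. On the log2 scale it changed by -1.2 ± 0.25 (adjusted p = 0.0125), -1.09 ± 0.25 (0.0272) and -1.51 ± 0.25 (0.000967), and -1.27 ± 0.14 averaged (2.75e-05). The β-arrestin 1 -/- call was lost without any of its normoxia libraries or its hypoxia replicates 0 or 2 (0.055 to 0.0965), and the wild type call at 0.0541 with only the wild type libraries and at 0.21 with the marker score. Stc2 (chr11:31359441-31370061) was at 3.76, 3.68 and 3.62 CPM and then 6.6, 5.71 and 6.12 in wild type, at 3.90, 3.27 and 4.35 and then 4.90, 6.5 and 4.63 in β-arrestin 1 -/- lung, and at 4.77, 3.92 and 4.24 and then 5.68, 4.51 and 2.88 in the third line. The first 2 lines showed no overlap and the third did. No single line passed (0.74 ± 0.21, 0.48 and 0.02; adjusted p = 0.0569 and 0.25 in the first 2), while the average of 0.41 ± 0.12 did (0.0267). That call was lost without any of 5 libraries (β-arrestin 1 -/- normoxia replicate 1 or hypoxia replicate 1, β-arrestin 2 -/- normoxia replicate 1 or hypoxia replicates 0 or 1; 0.0503 to 0.0601) and with the marker score as a covariate (0.135).

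Whether the response to hypoxia depended on genotype was tested as an interaction. For the libraries labelled β-arrestin 2 -/- against wild type, 4 of the 34 genes had a higher response and 0 a lower one, 11.8% against 6.05% of all genes (3.49% higher and 2.56% lower). They were Mxi1 (difference of log2 changes 0.72 ± 0.14, adjusted p = 0.0101), Kdm3a (0.66 ± 0.14, adjusted p = 0.0176), Pfkfb3 (1.02 ± 0.25, adjusted p = 0.031) and P4ha2 (0.79 ± 0.22, adjusted p = 0.0454). The median of the 34 genes was -0.11, against -0.06 for all genes. The Mxi1 and Kdm3a calls were kept without any 1 library. Pfkfb3 lost its call without wild type normoxia replicate 1, wild type hypoxia replicate 1, or replicates 0 or 1 of either group labelled β-arrestin 2 -/- (0.0534 to 0.082). P4ha2 lost it without any 1 of 13 libraries (0.0535 to 0.105) and kept it without wild type normoxia replicate 2, wild type hypoxia replicate 0 or any β-arrestin 1 -/- hypoxia library. With the marker score as a covariate the adjusted p of the 4 genes was 0.0826 to 0.249 and the differences were 0.56 to 0.89. For β-arrestin 1 -/- against wild type 0 of the 34 genes were called by edgeR, against 0.0% of all genes, with 3 at an unadjusted p below 0.05 and 0 by DESeq2.

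**Figure D5:**
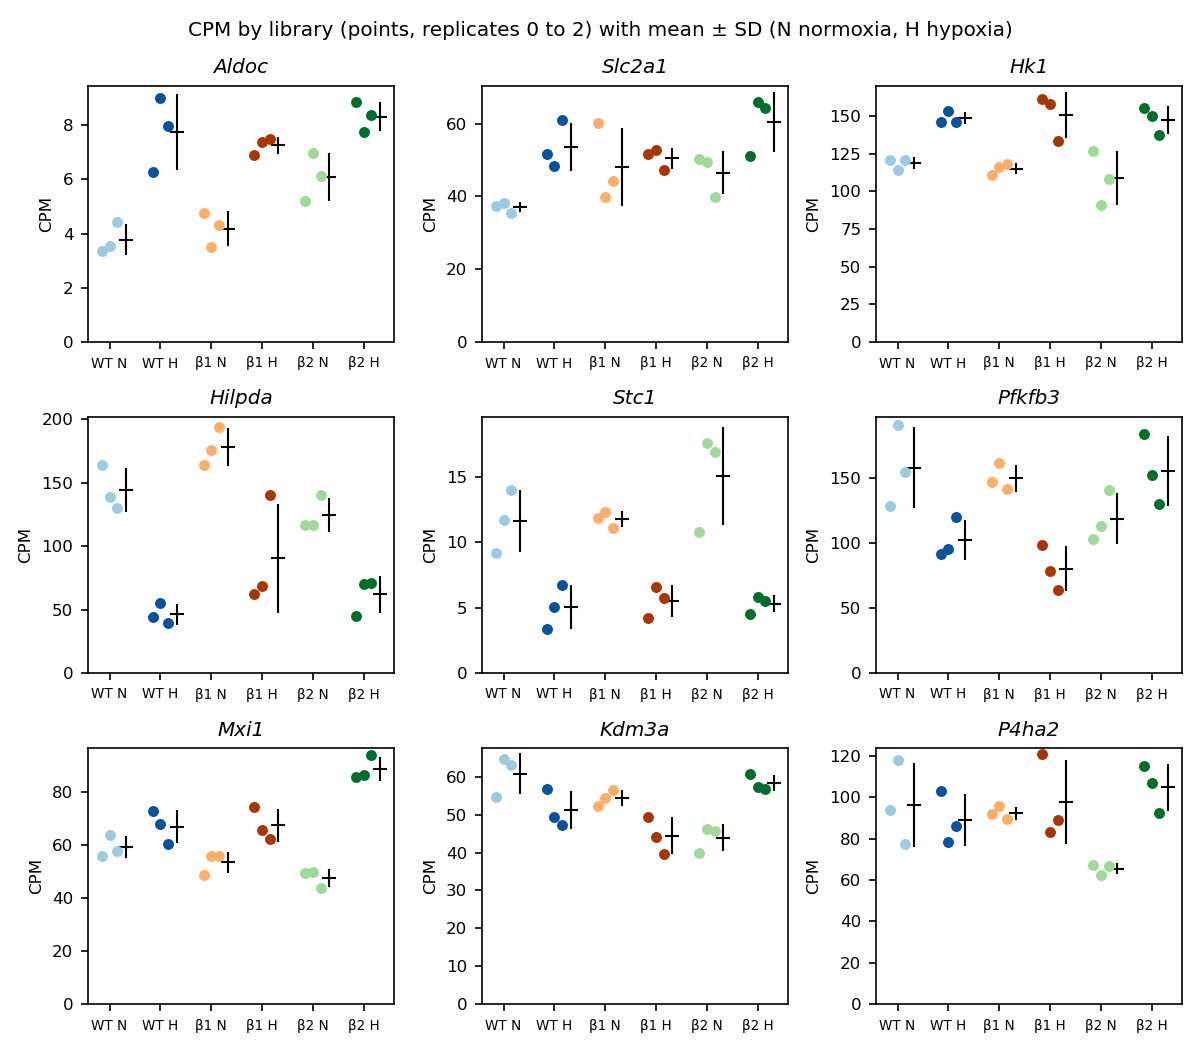
CPM of 9 genes by library (points, replicates 0 to 2 from left to right) with the mean ± SD of 3 libraries, for wild type (WT), β-arrestin 1 -/- (β1) and libraries labelled β-arrestin 2 -/- (β2) in normoxia (N) and hypoxia (H); each y axis starts at 0. Hk1 is higher and Stc1 lower in every hypoxic library than in any normoxic one, and Mxi1 reaches 85.8 to 94.2 CPM in hypoxia labelled β-arrestin 2 -/-.

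The normoxic groups were also compared directly. Their libraries enter the interaction too, so a low value in normoxia of the third line raises its response by construction and the 2 comparisons are not independent. Of the 4 genes with an interaction, Kdm3a and P4ha2 were called in normoxia and Mxi1 and Pfkfb3 were not. Against wild type normoxia, the normoxic libraries labelled β-arrestin 2 -/- had 2 of the 34 genes higher and 3 lower, 14.7% against 9.49% (4.0% higher and 5.49% lower). Higher were Pfkm (1.15 ± 0.31, adjusted p = 0.031) and Aldoc (0.69 ± 0.17, adjusted p = 0.0245), and lower were Ndrg1 (-0.71 ± 0.17, adjusted p = 0.0203), Kdm3a (-0.47 ± 0.10, adjusted p = 0.0131) and P4ha2 (-0.56 ± 0.16, adjusted p = 0.0369). Each of the 5 had no overlap between the groups, but they were called on the same libraries, so this is no further support. The share of all genes without overlap was not counted. Each of the 5 lost its call without 1 of at least 2 libraries, in each case libraries of these 2 groups. Without β-arrestin 2 -/- normoxia replicate 0, Pfkm was at 0.60 (0.198), Kdm3a had an adjusted p of 0.0658 and P4ha2 of 0.103. Without wild type normoxia replicate 1, Pfkm was at 0.114, Aldoc at 0.0955, Ndrg1 at 0.0736, Kdm3a at 0.0596 and P4ha2 at 0.143 in adjusted p. Without wild type normoxia replicate 0, Pfkm was at 0.0734, Aldoc at 0.0861 and P4ha2 at 0.0698, and without wild type normoxia replicate 2 Pfkm was at 0.0715. Without β-arrestin 2 -/- normoxia replicate 1, Aldoc was at 0.0864, Ndrg1 at 0.0755 and P4ha2 at 0.0996. With the marker score as a covariate none of the 5 was called (0.326 to 0.97), and Pfkm turned to -0.02. In hypoxia 0 of the 34 genes were called between these lines by edgeR, against 0.923% of all genes, with 6 at an unadjusted p below 0.05 and 2 by DESeq2; Mxi1 was at 0.41 (adjusted p = 0.0575).

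Between β-arrestin 1 -/- and wild type lung edgeR called 0 of the 34 genes. In normoxia 0 were called against 0.221% of all genes, with 3 at an unadjusted p below 0.05 and 0 by DESeq2. In hypoxia 0 were called against 0.201%, with 4 at an unadjusted p below 0.05 and 1 by DESeq2. Hilpda was 0.96 ± 0.25 higher in β-arrestin 1 -/- hypoxia without overlap, at an adjusted p of 0.191. The 3 libraries of that group were at 61.9, 68.9 and 140 CPM, against 43.8, 55.4 and 39.4 in wild type.

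The factors and oxygen sensors themselves were examined as a separate list of 10 genes. In wild type 0 rose and 1 fell, in β-arrestin 1 -/- lung 0 changed, and in the libraries labelled β-arrestin 2 -/- 4 rose and 1 fell, against 4.76%, 2.95% and 21.9% of all genes called in either direction. Epas1, the gene of HIF-2 alpha, which is abundant in lung endothelium, was at 4870 ± 536 CPM in wild type normoxia and 3380 ± 710 in hypoxia (log2 change -0.53 ± 0.14, adjusted p = 0.0375). In the third line it was at 3320 ± 70.4 and 4890 ± 312 (0.56 ± 0.14, adjusted p = 0.0102), and the difference of the responses was 1.08 ± 0.19 (adjusted p = 0.00756). The wild type call was lost without any 1 of 9 libraries (0.0503 to 0.13) and the interaction call was not lost without any 1 library, though it was at 0.0622 with the marker score. Hif3a rose by 1.67 ± 0.45 in the third line (adjusted p = 0.0156, lost without its normoxia replicates 0 or 1), and Arnt2 fell by 1.32 ± 0.40 (0.0278, lost without any 1 of 5 libraries at 0.0649 to 0.09). Egln1, the main prolyl hydroxylase gene and itself a HIF target, rose by 0.43 ± 0.07 there (0.00115) and by 0.25 ± 0.04 averaged (0.000686), with no call lost without any 1 library. In normoxia Epas1 was lower in the third line than in wild type (-0.55 ± 0.14, adjusted p = 0.0239), a call lost without any 1 of 4 libraries (0.0723 to 0.0802).

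A list of 36 further HIF targets also moved both ways. It had 5 genes higher and 1 lower in wild type, 3 and 1 in β-arrestin 1 -/- lung, 9 and 3 in the third line and 11 and 4 averaged. Those are 16.7%, 11.1%, 33.3% and 41.7% of the list, against 4.76%, 2.95%, 21.9% and 19.4% of all genes. Plod1, a collagen lysyl hydroxylase gene, rose by 0.45 ± 0.09 (adjusted p = 0.00925), 0.54 ± 0.09 (0.00457) and 0.94 ± 0.09 (2.73e-05) in the 3 lines. Pgf, a growth factor gene of the VEGF family, rose by 0.82 ± 0.17 (0.0115), 0.85 ± 0.17 (0.0124) and 0.84 ± 0.17 (0.00322). Both wild type calls were lost without wild type normoxia replicate 1 (0.0693 and 0.0541), and the β-arrestin 1 -/- call of Pgf without any of its normoxia replicates (0.0541 to 0.0598). Angptl4, an inhibitor of lipoprotein lipase, fell by 1.68 ± 0.37 in wild type (0.0178) and by 1.83 ± 0.37 in β-arrestin 1 -/- lung (0.0148), and by 1.23 ± 0.21 averaged (0.000953). Its wild type call was lost without any 1 of 3 libraries (0.0539 to 0.0784) and its β-arrestin 1 -/- call without any 1 of 2 (0.051 to 0.0567). Cxcl12 rose in wild type by 1.57 ± 0.30 (0.00799; 0.0559 without wild type normoxia replicate 1), and Tfrc, the transferrin receptor gene, in β-arrestin 1 -/- lung by 0.93 ± 0.15 (0.00459). Edn1, which encodes the vasoconstrictor peptide endothelin 1, in the third line rose by 1.91 ± 0.27 (0.000381), Kdm4b by 0.71 ± 0.10 (0.000432) and Vldlr by 0.79 ± 0.12 (0.000654). The list's interaction counts were 5 higher and 2 lower, 19.4% against 6.05% of all genes, with Edn1 at 1.95 ± 0.37 (0.0108), and its normoxia counts against wild type were 1 and 3, 11.1% against 9.49%. Vegfa, the best-known target, was at 893 ± 42.8 CPM in wild type normoxia and 835 ± 11.7 in hypoxia and was not called in any comparison.

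In 5 lists of neighbouring pathways of glucose use, 61 genes were tested. Called were 0.0% in wild type, 3.28% in β-arrestin 1 -/- lung, 21.3% in the third line and 9.84% averaged, against 4.76%, 2.95%, 21.9% and 19.4% of all genes. Of 17 tested glycolysis enzymes and glucose transporters outside the set (20 listed) 0 changed in wild type or β-arrestin 1 -/- lung and 1 rose and 1 fell in the third line. The latter was Ldhb, which favours lactate use (-0.82 ± 0.18, adjusted p = 0.00663). Slc2a4 and Eno3, which skeletal and heart muscle express strongly, were higher in normoxia labelled β-arrestin 2 -/- than in wild type (2.39 ± 0.62 and 2.35 ± 0.69, adjusted p of 0.0281 and 0.0434), but the calls were lost without any 1 of 4 libraries for Slc2a4 (0.0633 to 0.216) and of 10 for Eno3 (0.0505 to 0.397), with values as low as 1.13 and 0.80. Of 16 genes of pyruvate handling 0 changed in wild type, 1 fell in β-arrestin 1 -/- lung, and 3 rose and 2 fell in the third line. Pdk4, a pyruvate dehydrogenase kinase gene that fasting raises, fell by 2.41 ± 0.51 in β-arrestin 1 -/- lung (0.0179) and by 1.53 ± 0.28 averaged (0.00154). The first call was lost without any 1 of 4 libraries (0.0541 to 0.072). Of 16 citric acid cycle genes 0 changed in wild type or β-arrestin 1 -/- lung and 2 fell in the third line, and the same 2, Sdhc and Sdhd, were higher there than in wild type in normoxia. All 4 of these calls were lost without any 1 of at least 3 libraries. The pentose phosphate list (7 of 8 tested) had 0, 0 and then 1 higher and 2 lower, and that of gluconeogenesis (5 of 6 tested) 0, then 1 lower, then 1 lower. Within β-arrestin 1 -/- lung the latter was Fbp1 (-1.96 ± 0.37, adjusted p = 0.0105, lost without its normoxia replicate 0), at 1.11 ± 0.133 CPM and then 0.282 ± 0.0465. Lists other than HIF targets and sensors had 0 interaction calls for the third line.

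The authors' deposited table of Cuffdiff comparisons gave a q-value below 0.05 to more of the 34 genes in wild type hypoxia, 6 higher and 3 lower, 26.5% against 8.98% of all features it tested. In that table equal p-values had equal q-values across comparisons, whereas edgeR's adjustment was made within each comparison. The thresholds of 0.05 are therefore unlike. By the authors' deposited table there were 3 higher and 4 lower in β-arrestin 1 -/- hypoxia (20.6% against 7.8%), and 6 higher and 2 lower in hypoxia labelled β-arrestin 2 -/- (23.5% against 18.2%). Called there but not by edgeR were, in wild type, Slc16a3 (q = 0.0156), Pfkm (0.0079) and Stc2 (0.047), higher, and Pfkfb3 (0.0012), lower. In β-arrestin 1 -/- lung they were Slc16a3 (0.0231) and Bnip3l (0.0303), higher, and Hk2 (0.0211), lower. In the third line they were Ddit4 (0.0012) and Ero1l (0.0462), higher. Kdm3a, called by edgeR in the third line, had a q of 0.0665. For β-arrestin 1 -/- against wild type the authors' deposited table had 1 gene higher in normoxia (2.94% against 4.33%) and 3 in hypoxia (8.82% against 4.51%). For the third line against wild type the authors' deposited table had 1 higher and 5 lower in normoxia (17.6% against 14.6%) and 2 higher in hypoxia (5.88% against 5.28%).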

How the data were processed

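Poly(A) RNA of 18 lung libraries in 6 groups of 3 was measured. Per the submitters' processing notes the tools were FastQC, TopHat and Cuffdiff, with mm10 as the genome build; tool versions and gene models were not given in the sources used here. What the authors deposited for each gene are estimated counts by library without normalization, of which 93.3% were whole. Other columns hold the authors' FPKM, already scaled between libraries, and there were Cuffdiff tables of 15 comparisons, whose q-value was used together with the direction of the authors' test score. FPKM served for levels of different genes, and CPM for levels of 1 gene between libraries.

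Members were rows whose symbol equalled a listed gene. The members, roles and pathway lists were chosen with earlier results of these data known. Of 23356 features, 5 with the status HIDATA, which lists 0 for an estimate, were left out, 20 whose status was FAIL in at least 1 library stayed in, and 25 symbols had become dates. Estimated counts were rounded and tested in R 4.3.3 with edgeR 4.0.16: TMM scaling, filterByExpr over the groups (15388 genes), 1 fit of all libraries, quasi-likelihood F-tests and Benjamini-Hochberg adjustment over all genes, called below 0.05. Errors are SE for log2 changes and SD for levels. Leaving out 1 library gave alternatives, as did DESeq2 1.42.0 and its size factors, no filter, limma 3.58.1 on log2(FPKM + 1) or log2(FPKM + 0.1) with or without an FPKM minimum of 1 in 3 libraries, a block for the replicate number, fits of only the groups compared, a score of heart, airway and fat markers as a covariate, and leaving out the 2 libraries of lowest total. The fit was tested on simulated data with 200 changed genes in wild type hypoxia. It called 34.3% of 1.5-fold, 79.1% of 2-fold and 98.5% of 4-fold changes, and 6% of its calls were false. Changes as small as 1.5-fold were thus mostly missed there.

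Same-numbered libraries of wild type and the third line in normoxia deviated together (r across genes of 0.27, 0.11 and 0.14 for replicates 0 to 2). Those of wild type and β-arrestin 1 -/- hypoxia were at 0.56, 0.01 and 0.34. The other pairs of groups ran from -0.22 to 0.24, each with a negative value. Values are given per library for members called in any comparison and for the member of highest mean FPKM in each role, and up to 4 called genes are named of each further list. Promoters are from RefSeq on GRCm38.p6, which mm10 corresponds to, and coordinates of genes are those of the deposited table. Copies were sought with blastn 2.17.0 in annotated transcripts, and figures drawn with matplotlib 3.10.9.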

Additional observations from a re-analysis of the deposited data

Results flagged for a closer look

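For 4 genes the response to hypoxia differed between the libraries labelled β-arrestin 2 -/- and wild type by a test of the difference itself (edgeR's interaction term with Benjamini-Hochberg adjustment). The difference of the log2 changes was 0.66 for Kdm3a, 0.72 for Mxi1, 0.79 for P4ha2 and 1.02 for Pfkfb3. Kdm3a, P4ha2 and Pfkfb3 had negative log2 changes in wild type, none of them called, and positive ones in the third line. Arrb2 RNA was not lower in the normoxic libraries so labelled. Whether the label is wrong or the allele keeps its RNA was not tested, so the genotype behind the difference is uncertain.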

How the results depend on the processing

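Counts of the 34 genes called moved with the method. The share of all genes called under each setting is not given beside them. These counts therefore do not tell whether calls moved for these genes or for all genes. The same holds for the counts by DESeq2 and at an unadjusted p given above. In wild type hypoxia the count was 5, and DESeq2 gave 8, each of 3 limma fits on FPKM 3, the marker score as a covariate 0 and the fit without the 2 libraries of lowest total 11. Without 1 library it was 3 to 8: 3 without any wild type normoxia library, wild type hypoxia replicate 2, β-arrestin 1 -/- normoxia replicate 2, β-arrestin 2 -/- normoxia replicate 1 or its hypoxia replicate 1, and 8 without β-arrestin 1 -/- hypoxia replicate 2. In β-arrestin 1 -/- hypoxia it was 4, and 7 with DESeq2, 0 with only its own groups and 0 to 5 without 1 library (1, 0 and 1 without its normoxia replicates 0, 1 and 2, and 2 without its hypoxia replicate 0). In hypoxia of the third line it was 7, and 13 with only its own groups, 11 without the 2 libraries of lowest total and 5 to 12 without 1, with 12 without β-arrestin 1 -/- hypoxia replicate 2. For the third line against wild type in normoxia it was 5, and 8 with DESeq2, 3 with limma without a minimum, 0 with the marker score and 0 to 9 without 1 library. It was 0 without wild type normoxia replicate 1, 2 without its replicate 0 or replicates 0 or 1 of the third line, and 9 without β-arrestin 1 -/- hypoxia replicate 2. In hypoxia it was 0, and 2 with DESeq2, 1 without the 2 libraries of lowest total and 0 to 1 without 1 library (wild type hypoxia replicate 0, β-arrestin 1 -/- hypoxia replicates 0 or 2). For β-arrestin 1 -/- against wild type in hypoxia DESeq2 gave 1 and edgeR 0. The interaction count for the third line was 4, and 0 with the marker score and 2 to 6 without 1 library, with 2 without replicate 1 of either wild type group or replicates 0 or 1 of either group of the third line. The averaged count was 12, and 8 with the marker score and 10 to 15 without 1 library. The fits with the marker score and without the 2 libraries of lowest total were prompted by earlier results of these data. The causes were not tested.

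With the replicate block the wild type hypoxia count was 3. The others were 4, 8 and 12 for β-arrestin 1 -/-, the third line and the average, 0, 0, 5 and 0 for the genotype comparisons and 0 and 4 for the interactions. In 1 single-gene result the direction turned: Pfkm in normoxia of the third line was at -0.02 with the marker score. Without 1 library 5968 single results kept direction and side of the threshold, 101 lost a call and 51 gained one, and under other settings these numbers were 3606, 43 and 56. The core's share among promoters of the set was 47.2% over the 100 bases around the start, against 21.1% of all promoters and 34.5% of those of at least 60% GC, and 49.1% for the 6 letters ACGTGC or GCGTGC on either strand, against 16.3% and 32.1%. With 3 libraries a group, a gene without a call may still have changed.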
